A study of Danio rerio with 6 samples.

Results

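The keratin and desmosome genes of zebrafish larvae were examined in RNA-Seq counts after embryonic alcohol exposure (EAE). The members were taken by symbol from the deposited count table: every keratin (symbols beginning with *krt* and a digit, *krtt* or *cyt1*), desmoplakin, desmocollin, desmoglein, plakophilin, plakoglobin, envoplakin, periplakin and *epcam*. This gave 33 genes among 30713 named rows, and all 33 passed the filter on low counts, among 21617 genes tested. The EAE group held 3 pools of wild-type AB larvae that had been placed in 1% EtOH at 12 hpf and taken out of it at 5 dpf, and the control group held 3 pools of the same strain in 0% EtOH over the same time. All larvae were then held without EtOH, with paramecia as food, for 48 hours and homogenized whole at 7 dpf, 30 larvae to a pool. The sample labels speak of siblings shared among tubes and the study's methods of several combined clutches, so p-values here measure the spread between pools, which may be partly technical. The study's aim with these pools was to find pathways dysregulated beyond the exposure itself. None of these pools was taken at the end of exposure, so changes that persisted cannot be told apart from changes that arose afterwards.

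Keratins are the intermediate filament proteins of epithelial cells, and each filament pairs type I with type II keratins. Desmosomes are the spot-like junctions to which these filaments attach: desmogleins and desmocollins are the cadherins that bridge neighbouring cells, plakoglobin and the plakophilins are the armadillo proteins bound to the cadherin tails, and the plakins (desmoplakin, envoplakin and periplakin) reach from there to the keratin filaments. The skin of a larval zebrafish has an outer layer of superficial cells above a layer of basal keratinocytes, and different keratins are used in each. Epcam is an adhesion protein of the surface of epithelial cells.

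Counts on named genes totalled 19921809 to 23638705 in the EAE pools and 17264955 to 20724876 in the control pools. Levels are given as CPM, each gene's count scaled to a common library size, after normalization by the trimmed mean of M values (TMM), and they are not divided by gene length, so levels of different genes are not compared with each other. Genes were tested with edgeR's quasi-likelihood test and Benjamini-Hochberg adjustment over all 21617 genes, and a gene is said to have risen or fallen where its adjusted p-value was under 0.05. Log2 fold changes are EAE over control, with their standard error (SE) or 95% interval from this fit. The larvae held skin in every pool, with *tp63* at 44.6 to 55.8 CPM and *cldne* at 129 to 205 CPM over the 6 pools. Among marker lists of other tissues, 7 of 8 neuron markers fell (summed level 2460 to 2739 CPM in EAE pools and 3035 to 3092 CPM in control pools), 5 of 7 liver markers rose (2761 to 3058 CPM in EAE pools and 2459 to 2638 CPM in control pools) and 6 of 7 mucous cell markers rose (352 to 378 CPM in EAE pools and 288 to 293 CPM in control pools). Of 8 ionocyte markers 2 fell and of 9 skeletal muscle markers 1 rose. None of 6 intestinal, 7 exocrine pancreas, 6 notochord or 5 cartilage markers passed. In these 0, 1, 0 and 0 had an unadjusted p-value under 0.05 (edgeR), where 6213 of all 21617 genes tested did. The neuron count was 4 without EAE replicate 1 or control replicate 1, and the liver count was 3 without EAE replicate 1 or 3 and 2 without control replicate 1 or 3. The ionocyte count was 1 with DESeq2's Wald test and without control replicate 1 or 3 and 0 without EAE replicate 2, EAE replicate 3 or control replicate 2, while the mucous cell count was 6 whichever pool was left out. Without EAE replicate 3, 1 exocrine pancreas marker passed as lower. With all pools, 87.5% of neuron, 71.4% of liver and 85.7% of mucous cell markers passed, against 14.2% of all genes. The share was 25% for ionocyte and 11.1% for skeletal muscle markers. The mucous cell genes that rose were *agr2*, *ehf*, *gmds*, *pmm2*, *gale* and *galnt7*, and *foxp4* did not pass. Whether these genes mark mucous cells alone was not tested, so their rise is not read as a change in these cells. No marker in the table was at 0 in all pools. The part of these tissues in the results for the members was not tested. EAE replicate 1 had the highest level of the 3 EAE pools for 28 of the 33 members, against 30.8% of all genes tested, so calls without it are given below.

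Of the 33 members, 13 passed the threshold (39.4%), where 14.2% of all genes tested did. The median SE was 0.061 over the members and 0.096 over all genes tested. Smaller SEs let smaller changes pass, so these shares are not set against genes of equal precision. The part of this in the higher share was not tested. Median SEs were also lower in each family (0.051 to 0.082) and in each marker list (0.054 to 0.088). In the EAE group 6 members rose, where 7.22% of all genes did, and 7 fell, where 6.95% did. The genes that rose were *krt96*, *epcam*, *dsg2.1*, *evpla*, *cyt1* and *krt222*, and those that fell were *krtt1c19e*, *krt15*, *krt5*, *krt17*, *krt1-19d*, *krt97* and *pkp4*. The EAE pools lay all above the control pools for 10 members and all below for 11, where 32% of all genes did not overlap, 16% in each direction. Over the 33 members the median log2 fold change was -0.005, against 0.001 over all genes tested, so the members did not move as one: log2 fold changes ran from -0.81 to 1.24. All members kept the direction of their change in every fit in which they passed. When the test asked for more than a 1.5-fold change, only *krt96* passed (adjusted p = 0.0017, edgeR's glmTreat). Leaving out EAE replicate 1 gave 12 members, EAE replicate 2 gave 9, EAE replicate 3 gave 11, and control replicates 1, 2 and 3 gave 7, 7 and 10, while the number over all genes ranged from 1641 to 2996. The larvae were sequenced whole, so fewer cells of a type and less RNA per cell cannot be told apart for any of these genes.

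**Figure D1:**
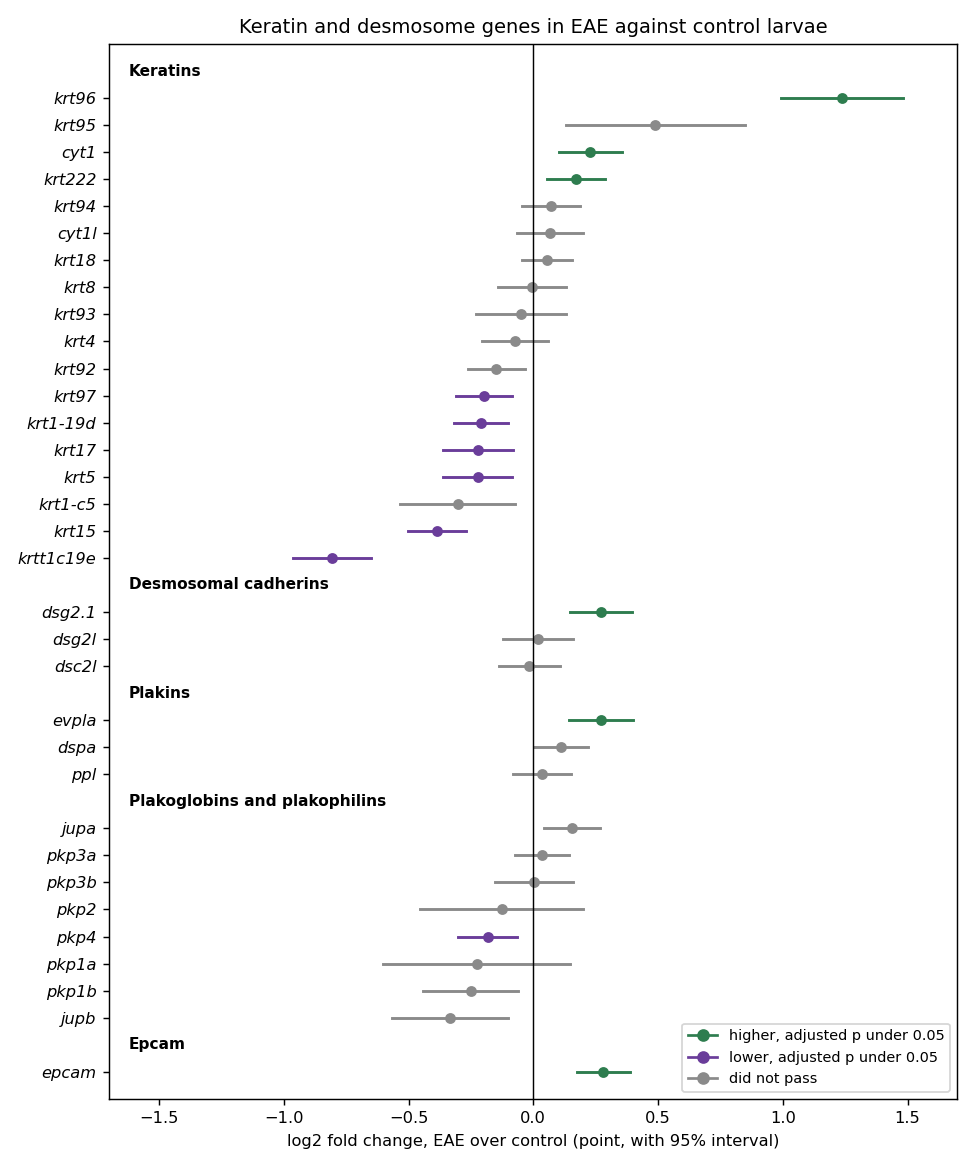
Log2 fold changes of the 33 members, EAE over control (x axis), with 95% intervals from the quasi-likelihood fit, 1 row per gene, grouped by protein family. Green genes rose, purple genes fell and grey genes did not pass an adjusted p-value of 0.05; *krt96* lies highest at 1.24 and *krtt1c19e* lowest at -0.81.

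Among the keratins, 3 of 18 rose and 6 fell (50% passed, against 14.2% of all genes), and 9 did not pass. The largest fall of any member was that of *krtt1c19e*, a type I keratin of basal keratinocytes in zebrafish. Its levels were 244, 202 and 184 CPM in EAE replicates 1, 2 and 3, against 359, 376 and 368 CPM in control replicates 1, 2 and 3. The highest EAE pool was thus well under the lowest control pool. The means were 209.9 ± 30.5 CPM in EAE larvae and 367 ± 8.60 CPM in controls (SD, n = 3 each), 0.57 times the control level, with a log2 fold change of -0.81 (SE 0.074, edgeR adjusted p = 1.2e-06). It passed whichever pool was left out, with log2 fold changes of -0.93 to -0.72. The EAE pools spread more widely than the control pools, and EAE replicate 1 was the one nearest to the controls.

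The keratin with the largest rise was *krt96*, a gene with few reads whose function is not given in the files. It had 337, 253 and 223 counts in EAE replicates 1, 2 and 3 and 119, 91 and 103 counts in control replicates 1, 2 and 3. These were 14.5, 12.5 and 11.2 CPM in the EAE pools, against 6.00, 5.27 and 5.00 CPM in the control pools. Each EAE pool was above each control pool by a wide margin. The log2 fold change was 1.24 (SE 0.12, edgeR adjusted p = 1.4e-06), a 2.35-fold rise, and it stayed between 1.13 and 1.32 with each pool left out in turn.

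Another keratin that fell whichever pool was left out was *krt15*. It shares its name with a keratin of mammalian basal keratinocytes, which does not place it in a skin layer of zebrafish. Its levels were 287, 260.3 and 276 CPM in the EAE pools, against 371, 368 and 337 CPM in the control pools. The groups did not overlap, and the log2 fold change was -0.39 (SE 0.055, edgeR adjusted p = 1.5e-04).

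Of the keratins with the most counts, *krt5* and *krt17* fell by a smaller amount. The type II keratin *krt5* was at 3699.9, 3304 and 3293 CPM in the EAE pools, against 3925, 4197 and 3894 CPM in the control pools. The type I keratin *krt17* was at 2962, 2570.4 and 2694 CPM in the EAE pools, against 3172, 3375 and 3049 CPM in the control pools. In both genes the EAE pools lay below the control pools, but EAE replicate 1 came close to the lowest control pool. Their log2 fold changes were both -0.22 (SE 0.066 and 0.067, edgeR adjusted p = 0.030 and 0.033). These calls depended on the pools: they held without EAE replicate 1 (adjusted p = 0.024 for *krt5* and 0.026 for *krt17*) and were lost without any 1 of the other 5. For *krt5* the adjusted p was 0.051 without EAE replicate 2, 0.10 without EAE replicate 3, and 0.072, 0.13 and 0.071 without control replicates 1, 2 and 3. For *krt17* it was 0.072 without EAE replicate 2, 0.081 without EAE replicate 3, and 0.089, 0.14 and 0.056 without control replicates 1, 2 and 3.

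The keratin *krt4*, used in the outer skin layer, did not pass. It was at 4265, 3975 and 4015 CPM in the EAE pools, against 4161, 4511 and 4229 CPM in the control pools, and the groups overlapped. The 95% interval of its log2 fold change was -0.21 to 0.06 (edgeR adjusted p = 0.47). The simple epithelium pair *krt8* (type II) and *krt18* (type I) did not pass either. For *krt8* the levels were 1184, 1073 and 1255 CPM in the EAE pools, against 1248, 1162 and 1115 CPM in the control pools, with an interval of -0.14 to 0.13. For *krt18* they were 238, 229.7 and 229 CPM in the EAE pools, against 219.6, 225 and 225 CPM in the control pools, with an interval of -0.04 to 0.16. The pools overlapped for *krt8* and did not for *krt18*, where the difference was small. Another keratin of high count, *krt92*, was at 472, 446 and 454 CPM in the EAE pools, against 511, 530.0 and 479.7 CPM in the control pools. Its groups did not overlap, and its log2 fold change of -0.15 did not pass (edgeR adjusted p = 0.074), although it did with DESeq2's Wald test (adjusted p = 0.043) and, just under the threshold, with library totals as the only scaling.

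Of the other keratins that passed, *cyt1*, a type I keratin of the outer skin layer in zebrafish, was at 41.5, 40.6 and 37.6 CPM in the EAE pools, against 33.2, 34.7 and 34.4 CPM in the control pools. All EAE pools were above all control pools, with a log2 fold change of 0.23 (SE 0.060, edgeR adjusted p = 0.016). Without EAE replicate 1 the adjusted p was 0.069, and without control replicate 1 it was 0.077. Its neighbour *cyt1l* did not pass, with 139, 126 and 119 CPM in the EAE pools, against 119.9, 132 and 115 CPM in the control pools. The groups overlapped, with an interval of -0.07 to 0.20, and the difference between *cyt1* and *cyt1l* was not tested. The keratin *krt222* was at 43.7, 41.3 and 43.5 CPM in the EAE pools, against 37.7, 38.1 and 38.4 CPM in the control pools. The EAE pools all stood above the narrow control range. It rose by a log2 fold change of 0.17 (SE 0.056, edgeR adjusted p = 0.048), close to the threshold. It passed without EAE replicate 2 (0.047), and the adjusted p was 0.13 without EAE replicate 1, 0.10 without EAE replicate 3, and 0.14, 0.11 and 0.093 without control replicates 1, 2 and 3. The call was also lost with DESeq2's Wald test (adjusted p = 0.14), with library totals as the only scaling (0.067), with no filter on low counts (0.054) and, at the threshold itself, with limma-voom. The type I keratin *krt1-19d* was at 171, 163 and 171 CPM in the EAE pools, against 192, 206 and 185 CPM in the control pools. Every EAE pool was below every control pool. It fell, with a log2 fold change of -0.21 (SE 0.052, edgeR adjusted p = 0.012), and the call was lost without control replicate 2 (adjusted p = 0.076). The keratin *krt97* was at 172, 154 and 158 CPM in the EAE pools, against 193, 183 and 178 CPM in the control pools. The groups again did not overlap, with EAE replicate 1 nearest to the controls. It also fell, with a log2 fold change of -0.20 (SE 0.054, edgeR adjusted p = 0.021). Its adjusted p was 0.074 and 0.054 without EAE replicates 2 and 3, and 0.11 and 0.052 without control replicates 1 and 2.

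Values close to the threshold were seen in a pair of keratins with few counts. For *krt95* the counts were 70, 85 and 71 in the EAE pools, against 53, 41 and 53 in the control pools. Its log2 fold change of 0.49 had an interval of 0.13 to 0.85 (edgeR adjusted p = 0.063), and it passed without EAE replicate 1 or with no filter on low counts (adjusted p = 0.048 in both). For *krt1-c5* the counts were 199, 142 and 157 in the EAE pools, against 208, 173 and 177 in the control pools. Its log2 fold change of -0.30 had an interval of -0.53 to -0.07 (edgeR adjusted p = 0.071), and it passed without control replicate 3 (adjusted p = 0.047). After scaling to CPM the groups did not overlap for either gene. The last of the 18, *krt93* and *krt94*, had log2 fold changes of -0.049 and 0.07, with intervals of -0.23 to 0.13 and -0.05 to 0.19. A further 4 rows hold keratins under names outside the symbol rule: *zgc:171226* and *zgc:110712*, which RefSeq names *krt98* and *krt99*, *KRT73* and a row named *KRT18* (1 of many). None of these passed, and their log2 fold changes were -0.20, 0.084, -0.24 and -0.10.

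**Figure D2:**
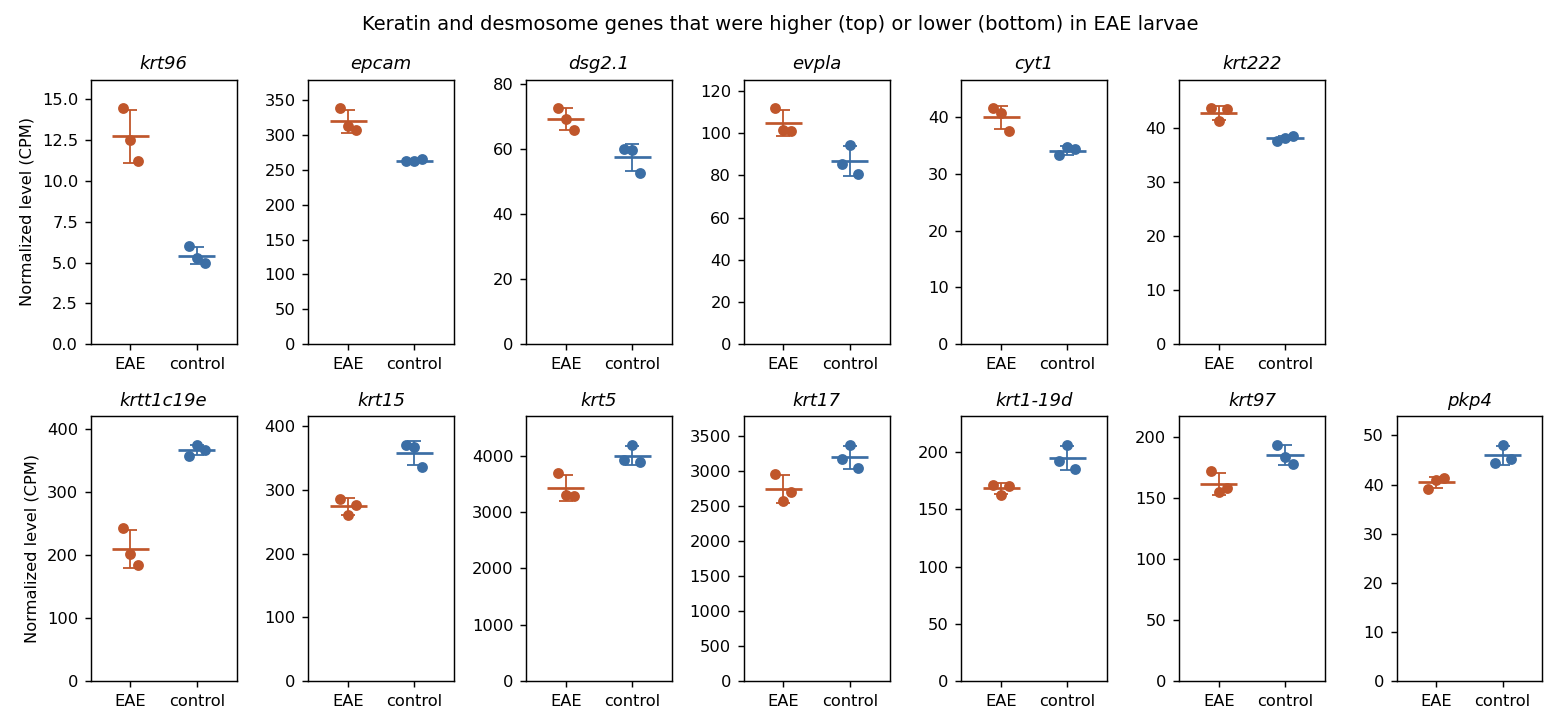
TMM-normalized level (CPM, y axis from 0) of the 13 members that passed, in the 3 EAE pools (left) and the 3 control pools (right) of each panel. Points are pools, lines the group means and bars 1 SD; no EAE pool overlaps a control pool in any panel, and the gap is widest relative to the level for *krt96* and *krtt1c19e*.

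Among the desmosomal cadherins 1 of 3 rose (33.3%, against 14.2% of all genes). The desmoglein gene *dsg2.1* was at 72.7, 69.4 and 66.0 CPM in the EAE pools, against 60.1, 59.7 and 52.8 CPM in the control pools. No control pool reached the lowest EAE pool, with means of 69.4 ± 3.31 CPM in EAE larvae and 57.5 ± 4.09 CPM in controls (SD, n = 3 each). The log2 fold change was 0.27 (SE 0.059, edgeR adjusted p = 0.0055), and it passed with each pool left out in turn (adjusted p up to 0.038). Its fellow desmoglein *dsg2l* was at 33.7, 29.2 and 32.3 CPM in the EAE pools, against 31.3, 30.2 and 32.5 CPM in the control pools. The desmocollin *dsc2l* was at 61.7, 54.5 and 56.7 CPM in the EAE pools, against 56.2, 61.1 and 57.7 CPM in the control pools. Both overlapped between the groups, with intervals of the log2 fold change of -0.12 to 0.16 for *dsg2l* and -0.14 to 0.11 for *dsc2l*.

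Of the 3 plakins, *evpla* rose (33.3%, against 14.2% of all genes). This envoplakin gene, whose mammalian counterpart is a part of the cornified envelope, was at 112, 102 and 101 CPM in the EAE pools, against 85.4, 94.6 and 80.7 CPM in the control pools. The groups did not overlap, although control replicate 2 came near the lowest EAE pool. The log2 fold change was 0.27 (SE 0.061, edgeR adjusted p = 0.0065), and it passed with each pool left out in turn (adjusted p up to 0.042). Periplakin, the partner of envoplakin in mammals, did not pass: *ppl* was at 520.0, 469 and 471 CPM in the EAE pools, against 479.8, 486 and 461 CPM in the control pools, with an interval of -0.08 to 0.15. Desmoplakin, which ties keratin filaments to the desmosome, was represented by *dspa*. It was at 236, 216 and 219 CPM in the EAE pools, against 205, 202 and 213 CPM in the control pools. The groups just cleared each other, and the log2 fold change of 0.11 did not pass (edgeR adjusted p = 0.16).

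The armadillo proteins gave 1 gene that fell and none that rose among 8 (12.5%, against 14.2% of all genes). The plakophilin gene *pkp4*, whose mammalian product is also found at adherens junctions, was at 39.2, 40.9 and 41.3 CPM in the EAE pools, against 44.5, 48.1 and 45.2 CPM in the control pools. All EAE pools were below all control pools, with a log2 fold change of -0.18 (SE 0.057, edgeR adjusted p = 0.039). It passed without EAE replicate 3 (0.047) and was lost without any 1 other pool, with adjusted p-values of 0.13 and 0.063 without EAE replicates 1 and 2 and 0.065, 0.15 and 0.079 without control replicates 1, 2 and 3. With DESeq2's Wald test it did not pass (adjusted p = 0.097). The plakoglobin paralogs differed in sign. The gene *jupa* was at 291, 264 and 262 CPM in the EAE pools, against 238, 245 and 250.4 CPM in the control pools. The gene *jupb* was at 5.97, 7.12 and 7.49 CPM in the EAE pools, against 8.26, 8.51 and 9.03 CPM in the control pools. Neither overlapped between groups, and neither passed: the log2 fold changes were 0.15 and -0.33, with intervals of 0.04 to 0.27 and -0.57 to -0.10 and adjusted p-values of 0.059 and 0.052 (edgeR's quasi-likelihood test). Both passed without EAE replicate 3 (adjusted p = 0.046 for *jupa* and 0.034 for *jupb*) and with no filter on low counts (0.046 and 0.042), and *jupb* did with limma-voom (0.049).

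The other plakophilins spanned small differences. The gene *pkp1b* was at 14.7, 13.8 and 11.7 CPM in the EAE pools, against 16.9, 15.9 and 15.2 CPM in the control pools. Its groups did not overlap, its log2 fold change was -0.25 with an interval of -0.44 to -0.06, and its adjusted p was 0.071 with all pools and just under 0.05 without EAE replicate 1 (edgeR's quasi-likelihood test). The gene *pkp3a* was at 122, 113 and 113 CPM in the EAE pools, against 113, 117 and 109.7 CPM in the control pools, and *pkp3b* was at 20.5, 19.0 and 22.0 CPM in the EAE pools, against 20.5, 19.7 and 21.2 CPM in the control pools. These overlapped, with intervals of -0.07 to 0.14 and -0.15 to 0.16. Few reads fell on *pkp1a*, with 72, 60 and 40 counts in the EAE pools, against 65, 52 and 66 counts in the control pools, and on *pkp2*, with 136, 78 and 94 counts in the EAE pools, against 88, 97 and 120 counts in the control pools. Both overlapped, and their intervals of -0.60 to 0.15 and -0.46 to 0.20 leave room for changes in either direction.

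The adhesion gene *epcam* rose. Its levels were 339, 314 and 307 CPM in the EAE pools, against 263, 262 and 265 CPM in the control pools. The control pools lay within a narrow range, and every EAE pool was above it. The means were 319.8 ± 16.6 CPM in EAE larvae and 263 ± 1.54 CPM in controls (SD, n = 3 each), with a log2 fold change of 0.28 (SE 0.051, edgeR adjusted p = 0.0015). It passed with each pool left out in turn, with log2 fold changes of 0.24 to 0.31.

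As a share of each library, the 33 members held 1.57%, 1.47% and 1.46% of counts in EAE replicates 1, 2 and 3, against 1.65%, 1.71% and 1.59% in control replicates 1, 2 and 3. All EAE pools were below all control pools, though EAE replicate 1 and control replicate 3 lay close together. The share is set by a few keratins: *krt4*, *krt5*, *krt17*, *krt8* and *krt92* made up 79.0% ± 0.243 of the members' counts in EAE larvae and 80.0% ± 0.351 in controls (SD, n = 3 each). Summed over the 18 keratins, levels were 14061, 12715 and 13061 CPM in the EAE pools, against 14673, 15465 and 14367 CPM in the control pools. All EAE sums were below all control sums. Summed over the 3 desmosomal cadherins they were 168, 153 and 155 CPM in the EAE pools, against 148, 151 and 143 CPM in the control pools. The 3 plakins summed to 867, 786 and 791 CPM in the EAE pools, against 771, 782 and 754 CPM in the control pools. The 8 armadillo genes summed to 502, 465 and 464 CPM in the EAE pools, against 449, 463 and 460 CPM in the control pools. The keratin sum was thus lower and the sum of each junction family higher in every EAE pool than in every control pool, by small margins for the junction families. The armadillo sum was set largely by *jupa*, at 262 to 291 CPM in EAE pools and 238 to 250 CPM in control pools, which did not pass. It does not stand for its genes: 5 of the 8 had negative log2 fold changes, with a median of -0.15. Library sizes and TMM factors computed without the counts of the members left the same 13 genes past the threshold.

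Ratios of counts within a pool do not depend on how libraries were scaled. The ratio of *krtt1c19e* to *krt4* was 0.0571, 0.0508 and 0.0458 in EAE replicates 1, 2 and 3, against 0.0862, 0.0833 and 0.0871 in control replicates 1, 2 and 3. The ratio of *krtt1c19e* to *krt5* was 0.0658, 0.0611 and 0.0559 in the EAE pools, against 0.0913, 0.0895 and 0.0945 in the control pools. Relative to *krt4* and *krt5*, *krtt1c19e* was thus lower in each EAE pool than in each control pool. These ratios use the same counts as the fold changes above and are not separate support for them. For *dsg2.1* over *dsc2l* the ratio was 1.18, 1.27 and 1.17 in the EAE pools, against 1.07, 0.976 and 0.914 in the control pools. For *krt8* over *krt18* it was 4.98, 4.67 and 5.49 in the EAE pools, against 5.68, 5.17 and 4.95 in the control pools, which overlapped. The pairs were picked with their values known. Of 8 pairs computed, 7 did not overlap between groups, and each of these had a two-sided exact permutation p of 0.1 (Benjamini-Hochberg adjusted over the 8 pairs, 0.11), the smallest that 3 pools against 3 allow, so no pair could pass. For *krt8* over *krt18* the exact permutation p was 0.6, also after adjustment.

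Many of the members are neighbours in the genome. All 33 matched a RefSeq gene of assembly GRCz12tu, and 17 of them fall into 5 sets of genes that lie side by side. This assembly is not the one the authors used, so only the order is given. The first set runs *krt1-19d*, *krtt1c19e*, *krt92*, *cyt1l*, *cyt1* and *krt17* with no other protein-coding gene between them. In this set 3 genes fell (*krtt1c19e*, *krt1-19d* and *krt17*), *cyt1* rose, and *krt92* and *cyt1l* did not pass. The set after it is *krt93*, *krt94* and *krt15*, with 1 gene (*krt98*) between *krt94* and *krt15*, of which *krt15* fell. In the next set, *krt222*, *krt97* and *krt96*, the outer genes rose and the middle gene fell. A further set is *krt5*, *krt8* and *krt18*, of which *krt5* fell, and the last is *dsc2l* and *dsg2.1*, of which *dsg2.1* rose. Within the sets that hold *cyt1* and *krt96*, genes that lie side by side were thus called in opposite directions with all 6 pools. The calls of *cyt1* and *krt17* did not both hold in any fit that left out 1 pool, nor did those of *krt222* and *krt97*. Those of *krt96* and *krt97* both held without EAE replicate 1 or control replicate 3, and not without any other pool. How multi-mapping reads were counted is not given in the sources used here, so the values of close paralogs carry that uncertainty.

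**Figure D3:**
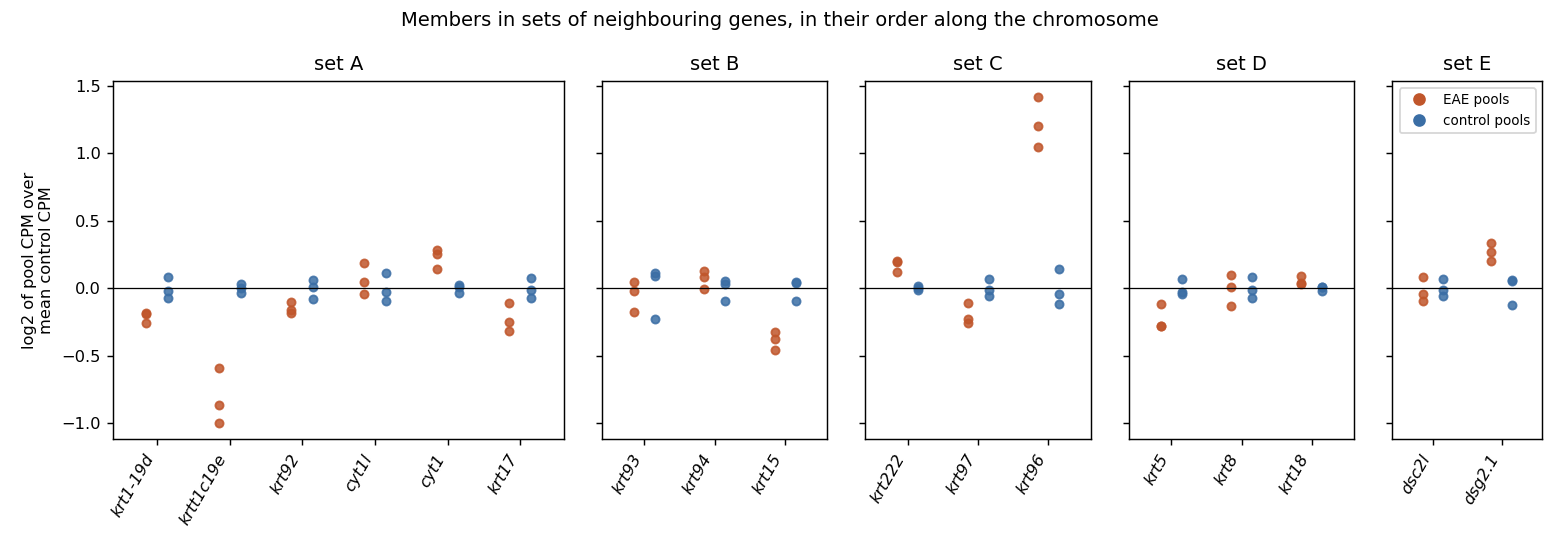
Members that lie side by side, in 5 panels that keep their order along the chromosome: log2 of each pool's CPM over the mean of the control pools (y axis), with EAE pools left of control pools for each gene. In set C *krt96* stands above and *krt97* below 0 in all EAE pools, and in set A *cyt1* stands above 0 while *krtt1c19e* and *krt17* stand below.

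Genes that work with the members were taken from hand-written lists of the epidermis. These lists were chosen with earlier results of these data known. Their shares beside that of all genes are therefore descriptions and not independent support. The median SEs of these lists ran from 0.048 to 0.080, also under the 0.096 of all genes tested. Among 24 genes listed for the envelope and periderm, 10 rose, none fell and 14 did not pass. The share was 41.7%, against 14.2% of all genes, with a median log2 fold change of 0.17 against 0.001 over all genes. The list was meant for the outer skin layer. Whether its genes are particular to that layer was not tested, so their rise is not placed there. The annexin gene *anxa1c* was at 132, 128 and 132 CPM in the EAE pools, against 77.9, 86.1 and 76.4 CPM in the control pools (log2 fold change 0.70, SE 0.054). The calpain gene *capn9* was at 92.1, 85.7 and 81.5 CPM in the EAE pools, against 56.5, 58.6 and 58.6 CPM in the control pools (log2 fold change 0.58, SE 0.055). For both, all EAE pools were above all control pools, as they were for the tight junction claudins *cldne* and *cldnf*, with log2 fold changes of 0.48 and 0.47. The count was 5 without EAE replicate 1, 5 without control replicate 1 and 4 without control replicate 3, and these 4 genes passed in all of these fits. DESeq2's Wald test gave 6.

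Of 14 epidermal transcription regulators 7 rose and 2 fell (64.3%, against 14.2% of all genes), with a median log2 fold change of 0.22. The number that rose was 5 without EAE replicate 1, EAE replicate 2 or control replicate 3. Its highest value with 1 pool left out was 8, and DESeq2's Wald test gave 6. The grainyhead-like gene *grhl3*, a regulator of skin barrier genes, was at 39.6, 41.5 and 37.3 CPM in the EAE pools, against 24.3, 19.7 and 17.95 CPM in the control pools. The epithelial Ets factor gene *elf3* was at 84.5, 73.8 and 75.8 CPM in the EAE pools, against 48.3, 38.6 and 39.0 CPM in the control pools. No EAE pool overlapped a control pool in either gene, and the log2 fold changes were 0.93 and 0.89 (SE 0.086 and 0.075, edgeR adjusted p = 1.2e-06 and 4.7e-07). Smaller rises were those of *znf750*, needed for epidermal differentiation in humans, and of *grhl1*, with log2 fold changes of 0.61 and 0.36. Those that fell were *klf17* (-0.48) and *tfap2a* (-0.16); the number that fell was 1 without EAE replicate 1, EAE replicate 2, control replicate 1 or control replicate 2. The basal keratinocyte regulator *tp63* was at 55.8, 54.2 and 44.6 CPM in the EAE pools, against 45.0, 45.6 and 44.6 CPM in the control pools. It did not pass (log2 fold change 0.20, edgeR adjusted p = 0.072) and did with no filter on low counts (0.033) and without EAE replicate 3 (adjusted p = 0.0030), the only EAE pool not above the control pools.

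Of 9 genes linked to Epcam, 3 rose and 1 fell (44.4%, against 14.2% of all genes). The claudin gene *cldn7b* rose by a log2 fold change of 0.33 (SE 0.051), and the genes of the membrane protease matriptase, *st14a* and *st14b*, rose by 0.22 and 0.18 on the log2 scale. The receptor gene *f2rl1.2* fell (log2 fold change -0.47). The call of *st14b* held without EAE replicate 2 and was lost without any 1 other pool (adjusted p from 0.093 to 0.15), and that of *f2rl1.2* was lost without control replicate 2 (adjusted p = 0.081). Neither passed with DESeq2's Wald test (adjusted p = 0.12 for *st14b* and 0.053 for *f2rl1.2*), and *st14b* did not with limma-voom (0.051) or with library totals as the only scaling (0.060). Of 5 adherens junction genes 2 rose (40%, against 14.2% of all genes). These were E-cadherin (*cdh1*) and p120 catenin (*ctnnd1*), with log2 fold changes of 0.19 and 0.20 (edgeR adjusted p = 0.015 and 0.012). The rise of *cdh1* was lost without EAE replicate 1 (adjusted p = 0.070), without control replicate 2 (0.054) and without control replicate 3 (0.050).

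Lists of the basal side of the skin were read against the 14.2% of all genes that passed. Of 20 hemidesmosome and basement membrane genes, which fasten basal keratinocytes to the matrix, none passed with edgeR's quasi-likelihood test or DESeq2's Wald test. With edgeR 5 had an unadjusted p-value under 0.05, where 6213 of all 21617 genes tested did, so these 5 are not read as a result. Their median log2 fold change was -0.07. The integrin genes *itga6b* and *itgb4* had log2 fold changes of -0.16 and -0.13 (edgeR adjusted p = 0.10 and 0.13), with EAE pools below control pools in both. Of the 20 genes, 3 had all EAE pools below the control pools and 1 had all above, where 16% of all genes did in each direction. Another of the 5, *cd151*, had a log2 fold change of 0.27 (edgeR adjusted p = 0.16). Over the 20 genes, 14 log2 fold changes were negative and 6 positive. Without EAE replicate 1, 1 gene of the list passed as lower. Of 12 basal keratinocyte genes, 6 of them also on the regulator or hemidesmosome lists, only the tetraspanin gene *cd9b* passed (8.33%), as higher (log2 fold change 0.32, edgeR adjusted p = 4.6e-04). Without EAE replicate 3, 2 genes passed as higher, and without EAE replicate 1, 1 passed as lower. The log2 fold changes of *krtt1c19e* and *krt15* lay below those of all genes on these lists, of which the lowest was -0.22 for *itga6a*. These are the members with the lowest log2 fold changes, so this contrast was partly set by their choice. The difference was not tested, and the skin layer that holds *krt15* in zebrafish was not examined here. Among 16 other intermediate filament genes, with nuclear lamins among them, 2 passed (12.5%, against 14.2% of all genes). The gene *nefla*, the light neurofilament of neurons, fell (log2 fold change -0.33) and *lmna*, a nuclear lamin, rose (log2 fold change 0.22). The call of *lmna* was lost without EAE replicate 1 (adjusted p = 0.16), control replicate 1 (0.11) or control replicate 2 (0.097), and with DESeq2's Wald test (0.068). The median of the 16 was -0.07.

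**Figure D4:**
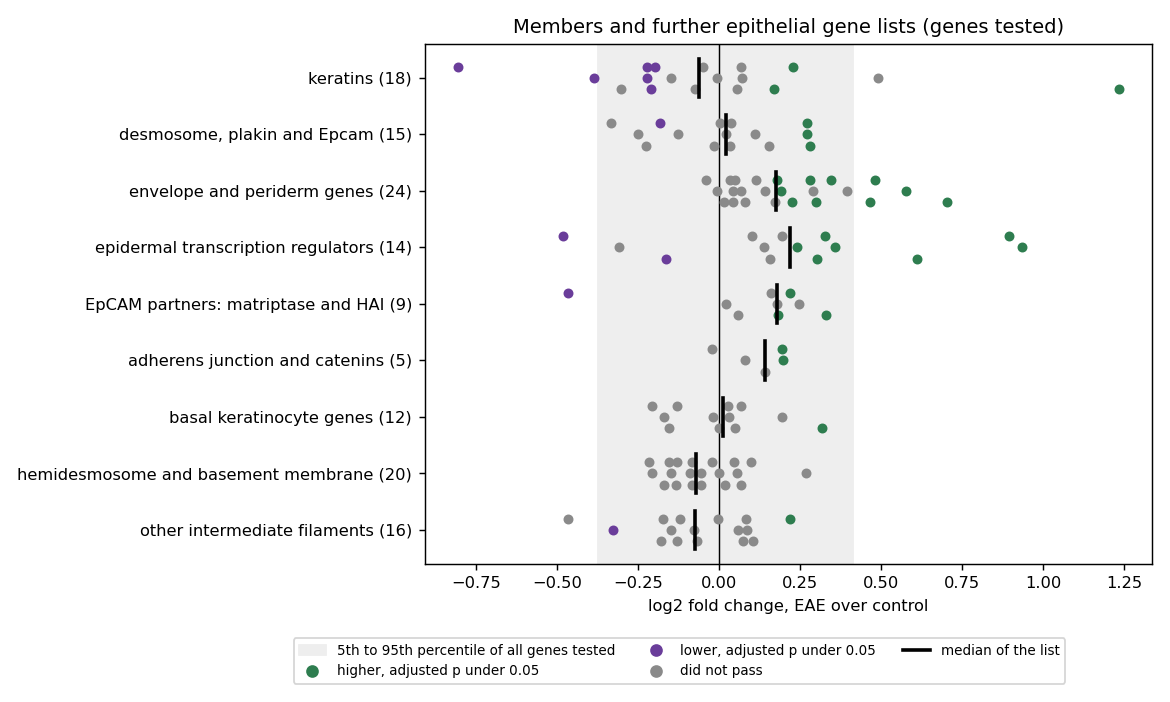
Log2 fold changes, EAE over control (x axis), of the members and of 7 further gene lists, 1 point per gene tested, with the number of genes in brackets. Green genes rose, purple genes fell, grey genes did not pass, black bars are list medians and the shaded band spans the 5th to 95th percentile of all genes tested (-0.37 to 0.41). The lists were chosen with earlier results of these data known.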

How the data were processed

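Poly-A selected RNA from 6 pools of whole larvae (3 EAE, 3 control) was sequenced as single-end reads. The authors aligned them to GRCz10 with STAR, per their methods and processing notes, and the deposited table gives raw counts, 1 column per pool and 1 symbol per line, with no normalization. The counting program, annotation release and use of strand are not given in the sources used here. The row with no gene name (1.49% to 1.57% of counts) was left out. Genes passing filterByExpr were normalized by TMM (factors 0.986 to 1.02) and tested with edgeR 4.0.16 (glmQLFit, glmQLFTest) in R 4.3.3; limma 3.58.1 (voom) and DESeq2 1.42.0 were alternatives, as were other scalings and filters and leaving out each pool. Standard errors are the absolute log2 fold change over the square root of F. Within-group pairs of pools exceeded counting noise (chi-square per degree of freedom 3.44 to 4.87).

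Members passing the threshold, the 5 with the most counts, those with adjusted p under 0.10 and all junction genes are given per pool, and up to 4 genes per list are named. Beyond this rule, *krt18*, *cyt1l*, *krt93*, *krt94*, *tp63*, *itga6a*, *itga6b*, *itgb4*, *cd151*, *tfap2a* and *klf17* were chosen after their values were seen. Members and lists were chosen with earlier results of these data known. Of the listed genes, 18 were not found under these symbols. No sequence was used here.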

Additional observations from a re-analysis of the deposited data

How the results depend on the processing

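No gene followed across the fits changed direction between fits in which it passed. Those followed were the 33 members, *tp63* and up to 4 genes past the threshold per epidermal list. Over these, 668 values kept their side of the threshold, 82 no longer passed and 13 newly passed. The 668 include genes that did not pass with edgeR's quasi-likelihood test on all pools and so had no call to lose. The 82 include the calls lost where a 1.5-fold change was required. The genes *klf17*, *tfap2a*, *itga6a*, *itga6b*, *itgb4* and *cd151* were not followed singly. The replicate numbers did not pair the pools: deviations of same-numbered pools correlated at -0.009, -0.034 and -0.093. With the replicate block, 9 members passed, 5 higher and 4 lower, against 13, 6 and 7; the block left out *krt5*, *krt17*, *krt222* and *pkp4* (adjusted p = 0.099, 0.099, 0.090 and 0.069), and over all genes 2339 passed, against 3063. Among list genes it left out *st14b* (0.084) and *lmna* (0.052), and 8 envelope and periderm genes passed, against 10. DESeq2's Wald test gave 12 members (1846 of all genes) and limma-voom 13. Requiring a change of at least 1.5-fold left 1 member, 1 higher and 0 lower, and 61 of all genes, against 3063. With single pools left out, the number of members ranged from 7 to 12, of higher members from 4 to 6 and of lower members from 2 to 7; the members' median ranged from -0.027 (without EAE replicate 1) to 0.053 (without EAE replicate 2), and their summed level, EAE over control, from 0.887 to 0.932 (0.914 with all pools). Genes of under 100 counts (*pkp1a*, *krt95*) had standard errors of 0.18 and 0.17, against 0.05 for *epcam*.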
